A study of Caenorhabditis elegans with 2 samples.

Results

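The 300 strongest binding sites of RNT-1 in first-stage (L1) larvae of Caenorhabditis elegans are described here. They are the 300 regions with the highest pooled signal among the 5560 peaks that the authors kept after comparing replicates by the irreproducible discovery rate (IDR), and they were therefore chosen by the signal itself. Signal is the value that the authors' peak caller gave each region, on a scale that no label or header states. Chromatin was immunoprecipitated with an anti-GFP antibody from whole hermaphrodites of strain OP462, genotype unc-119(tm4063) III; wgIs462, in which a stable transgene adds a C-terminal GFP-FLAG tag to rnt-1. The larvae had been starved after bleaching and were collected 6 h after synchronization. There was 1 group of 2 biological replicates, and no untagged or untreated larvae to compare it with were analysed here. Binding was that of the tagged product of the transgene, and untagged RNT-1 was not measured. In whole larvae, strong binding in few cells and weak binding in many cells cannot be told apart.

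RNT-1 is the RUNX-family transcription factor of C. elegans, related to the mammalian RUNX proteins that control blood and bone development. It binds DNA through its Runt domain together with its partner BRO-1, and is best known in the worm for promoting the divisions of seam cells, the stem-like cells of the larval epidermis. RUNX factors recognise the letters TGTGGT and, less often, TGCGGT.

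Of the 7 strongest peaks, 6 are shown first. Each line gives the summit and 50 bases on either side, plus strand, read from the RefSeq WBcel235 assembly, which is the ce11 build of the peaks. Capitals mark TGTGGT and 3 words described further on, CTAGGCCA, ACTCCTCT and GCGCAGGG, on either strand. The windows of K10D2.5, rpl-35 and rpl-3 hold none of these words. The peaks are named by the nearest protein-coding gene, and lie at chrIII:7520731-7520963 (cux-7), chrV:14055059-14055369 (intergenic, 2605 bp upstream of F58D12.3), chrIII:5349336-5349568 (thoc-5), chrIII:5172561-5172808 (K10D2.5), chrIII:7854563-7854803 (rpl-35) and chrIII:3867452-3867692 (rpl-3).
cux-7: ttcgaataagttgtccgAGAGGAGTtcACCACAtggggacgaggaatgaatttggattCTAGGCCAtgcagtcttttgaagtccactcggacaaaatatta
F58D12.3: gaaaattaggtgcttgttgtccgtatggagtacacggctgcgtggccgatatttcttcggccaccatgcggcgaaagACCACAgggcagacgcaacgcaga
thoc-5: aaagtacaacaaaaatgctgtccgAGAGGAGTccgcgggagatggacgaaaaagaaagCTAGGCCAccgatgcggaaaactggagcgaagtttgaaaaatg
K10D2.5: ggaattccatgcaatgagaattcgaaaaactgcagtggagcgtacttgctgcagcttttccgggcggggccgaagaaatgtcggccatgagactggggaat
rpl-35: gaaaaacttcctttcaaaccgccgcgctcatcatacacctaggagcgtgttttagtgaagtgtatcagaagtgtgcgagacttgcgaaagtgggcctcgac
rpl-3: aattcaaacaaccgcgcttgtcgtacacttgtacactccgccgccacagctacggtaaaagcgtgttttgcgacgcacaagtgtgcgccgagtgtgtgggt

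The strongest peak of all lay 4 bp upstream of a start of cux-7, in a region shared with starts of C07H6.2 and of lig-4, the gene of a DNA ligase of double-strand break repair. Its pooled signal was 3588, and its signal was 1916 in replicate 1 and 1700 in replicate 2. The second strongest lay 113 bp upstream of F56G4.6, between that gene and wbp-4, with 1642 and 1501 in replicates 1 and 2. Next came the intergenic peak near F58D12.3, with 1607 and 1450. It had no start of any annotated gene within 1 kb. Both replicates ranked these regions far above the median member, whose signal was 582 in replicate 1 and 543 in replicate 2.

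The genes with the nearest start at the 30 strongest peaks had varied products. Genes of RNA handling and protein synthesis included thoc-5, a subunit of the THO complex of mRNA export, with 1565 and 1397 in the 2 replicates. They also included rpl-3, rpl-15 and rpl-35, which encode proteins of the large ribosomal subunit, the RRM-domain gene T07F10.3, and the tRNA pseudouridine synthase gene Y73B6BL.29. Mitochondrial genes were F25H9.7, annotated as a succinate dehydrogenase assembly factor (1490 and 1196), sco-1, which serves cytochrome c oxidase assembly (1180 and 1161), and mppb-1, a subunit of the peptidase that trims imported proteins (1276 and 896). Protein handling was represented by cdc-48.1, an AAA ATPase that extracts ubiquitinated proteins, with 1133 and 1141, and by sec-61.G, a subunit of the endoplasmic reticulum translocon, with 1098 and 1100. The peak at ced-5, which encodes an engulfment protein of the DOCK family, had 1176 and 1169. The remaining named genes were C49A9.10, W02H5.19, tasp-1, lrpr-1, Y56A3A.7, K10D2.5, W04C9.4, Y65A5A.2, C47E8.4, Y75B8A.24, F10E9.5 and the noncoding gene ZK757.7. The peak of C47E8.4 lay in the interval it shares with hsp-90, and that of K10D2.5 in the interval it shares with prp-19, a splicing factor gene.

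The threshold of 300 fell in a continuous range of values. The last members were the peaks nearest T23G4.127, Y87G2A.18 and T28B8.1, with pooled signals of 799.7, 793.2 and 790.3. The first peaks outside were nearest zfp-3, W06H8.6 and phm-2, with 786.0, 783.9 and 783.2. The median pooled signal of the 300 was 1119, and that of the other 5260 peaks was 165.

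Most of the 300 lay just upstream of protein-coding genes. Summits of 259 members (86.3%, 95% exact binomial interval 81.9 to 90.0%) fell in promoters, meaning within 1 kb upstream of a protein-coding start, against 2666 of the 5260 other peaks (50.7%). The difference passed Fisher's exact test (two-sided, odds ratio 6.15, Benjamini-Hochberg adjusted p = 3.67e-36 over 7 annotation classes). Such tests over peaks take each peak as a unit. Peaks are not replicates, and the test does not measure variation between larvae.

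Introns held 13 members (4.33%) against 17.3% of the other peaks (adjusted p = 6.34e-11, Fisher's exact test), and intergenic sequence 22 members (7.33%) against 23.3% (adjusted p = 2.95e-12). Coding sequence held 1 member against 161 other peaks (Fisher's exact test, adjusted p = 0.00385), and noncoding exons 2 against 189 (adjusted p = 0.00407), and neither call held for the strongest 100 peaks, which had 0 in either class (exact test, adjusted p = 0.170 and 0.0882). For the 5′ UTR, with 2 members and 77 other peaks, and the 3′ UTR, with 1 and 27, the exact test did not pass (adjusted p = 0.519 and 1).

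**Figure D1:**
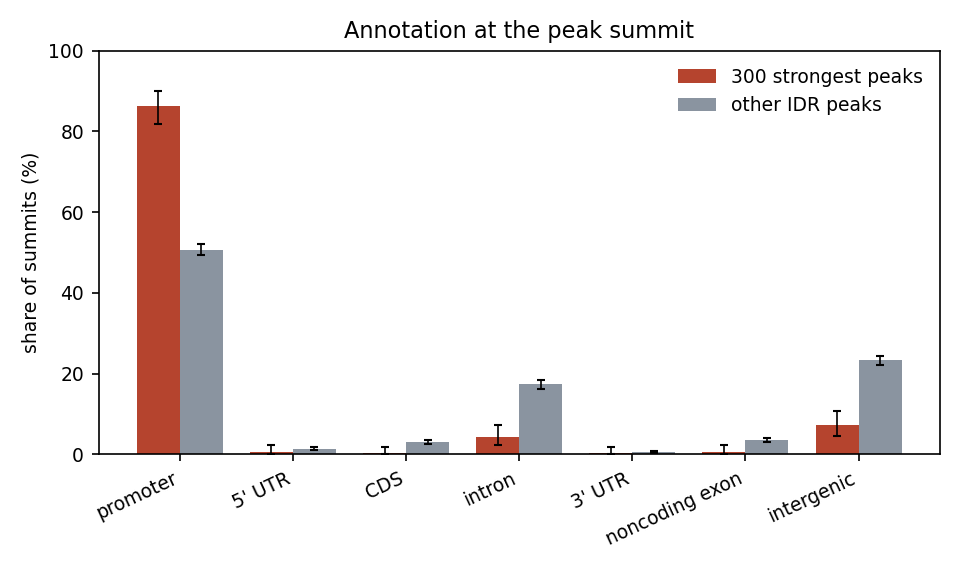
Share of peak summits in each annotation class (vertical axis, %), for the 300 strongest peaks and the other 5260 IDR peaks, with 95% exact binomial intervals as error bars. The promoter bars stand at 86.3% and 50.7%.

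The promoter share was level through the 300 and lower beyond them. It was 87% in the strongest 100, 86% in the next 100 and 86% in the last 100. In the 300 peaks just below the threshold it was 67.7%.

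The summits sat close to the starts and on the upstream side. The median distance to a protein-coding start was 202.5 bp for the members and 675 bp for the other peaks. Of the 240 members within 500 bp of such a start, 230 (95.8%) lay upstream of it, against 84.1% of the 2340 other peaks at that distance. In the band from 50 to 400 bp upstream lay 184 members (61.3%) and 29.5% of the other peaks. In the 300 peaks just below the threshold the median distance was 273.5 bp, and 48.3% lay in that band. Of the 189 of them within 500 bp of a protein-coding start, 92.6% lay upstream. These values lay between those of the members and those of all the other peaks.

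**Figure D2:**
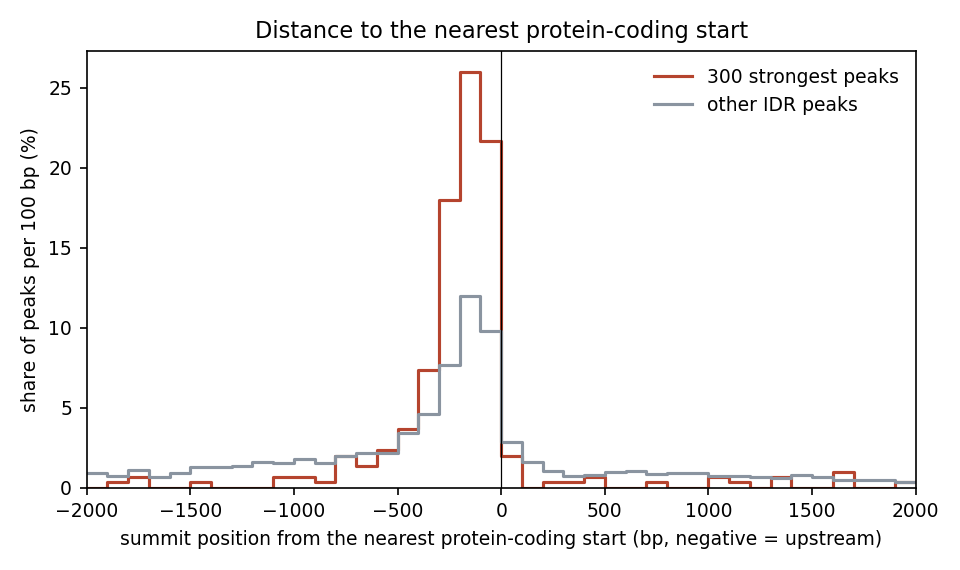
Position of the summit relative to the nearest protein-coding start (horizontal axis, bp, negative upstream), as the share of peaks in each bin of 100 bp (vertical axis, %). Both groups have their maximum just upstream of the start, and the 300 strongest peaks rise higher there, with 61.3% of them in the band from 50 to 400 bp upstream.

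Many of the 300 lay between 2 genes that are transcribed away from each other. Between divergent protein-coding starts, each within 1 kb of the summit, lay 116 members (38.7%, interval 33.1 to 44.4%) and 600 other peaks (11.4%), with an odds ratio of 4.90 (Fisher's exact test, p = 1.54e-31). In the 300 peaks just below the threshold, 75 (25%) lay between such starts, a share between those of the members and of all the other peaks. Among summits in promoters alone the shares were 44.8% for members and 22.5% for the other peaks. The odds ratio there was 2.79 (Fisher's exact test, p = 6.52e-14, a comparison added after the values were seen). At such a peak the nearest gene is 1 of at least 2 with a start close by, as with ced-5 and F01D4.5, or hsr-9 and rps-19.

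Members had close neighbours less often than the other peaks. Another IDR summit lay within 1 kb of 43 members (14.3%) and of 23.7% of the other peaks (Fisher's exact test, p = 0.000134), but the difference did not pass at 500 bp (5.33% and 7.57%, p = 0.174). Exactly 2 genes were the nearest within 2 kb for 2 members each. Y65A5A.2 had peaks of ranks 13 and 37, at chrIV:16415179-16415398 and chrIV:16415690-16415891, with 1333 and 1275 in replicates 1 and 2 at the first and 997 and 975 at the second. For eel-1, which encodes a HECT-type ubiquitin ligase, the 2 peaks were of ranks 59 and 274, with 837 and 858 at the first and 453 and 387 at the second. R06C1.4, an RRM-domain gene, was nearest to 2 members, but only 1 of them lay within 2 kb.

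The width of a member was 205 bp at the median, with a range of 164 to 454 bp. The other peaks had a median and an upper quartile of 216 bp, so many of them share 1 width. The median width was 220 bp in the strongest 100 peaks and 176 bp in the 300 peaks just below the threshold. Members were therefore not narrower than the peaks next in signal. Bases G and C made up 49.5% of the bases within 50 bp of the summit at the median member and 46.5% at the median other peak. In the 300 peaks just below the threshold the median was 50.5%, so the higher share was not particular to the members.

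The 300 were spread unevenly over the chromosomes. Chromosome III held 66 of them (22%) against 15.8% of the other peaks (Fisher's exact test, adjusted p = 0.0179 over 6 chromosomes), and chromosome X held 31 (10.3%) against 22.6% (adjusted p = 7.31e-07). On chromosomes I, II, IV and V there were 49, 55, 48 and 51, with adjusted p from 0.230 to 0.813. Per megabase, chromosome III had 4.79 members and X had 1.75. In the 300 peaks just below the threshold, X held 50 (16.7%), a share between those of the members and of all the other peaks.

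The X members also lay elsewhere in the annotation. Of the 31, 16 (51.6%, interval 33.1 to 69.8%) were in promoters, against 243 of 269 autosomal members (90.3%, interval 86.2 to 93.6%). Among the other peaks the shares were 42.0% on X and 53.2% on autosomes. Intergenic sequence held 11 of the 31 X members and 11 of the 269 autosomal members. No test was made because the contrast was noticed in these data, so the shares are a description and their intervals cover counting error only. Between divergent starts lay 1 X member (3.23%) and 42.8% of the autosomal ones.

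**Figure D3:**
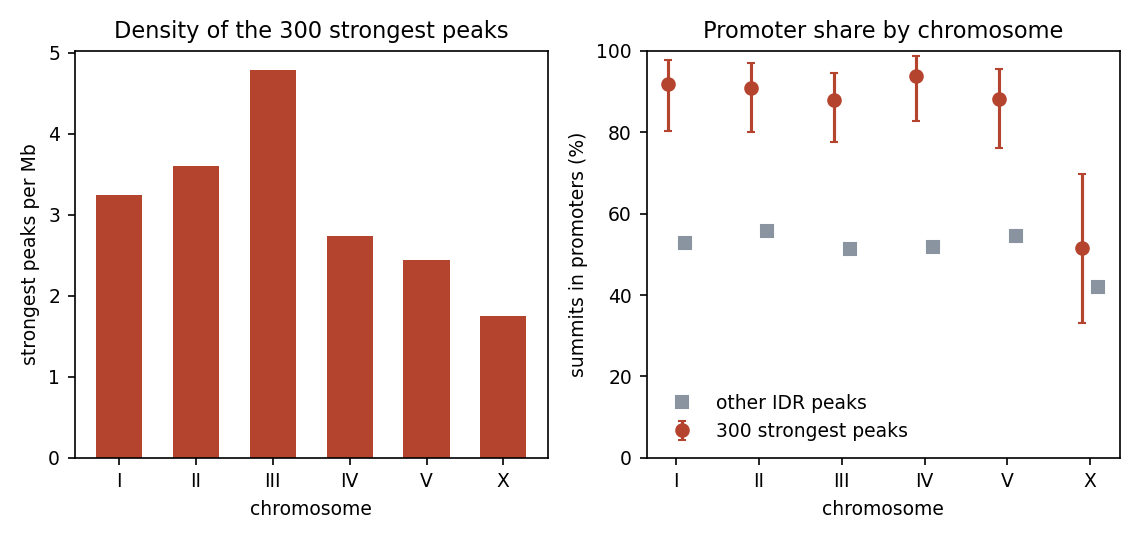
Left, number of the 300 strongest peaks per megabase of each chromosome. Right, share of summits in promoters (vertical axis, %) for the 300 strongest peaks, with 95% exact binomial intervals, and for the other IDR peaks. The 5 autosomes lie between 87.9% and 93.8% for the strongest peaks and X lies at 51.6%.

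The strongest X members were mostly outside promoters. The first was rank 23, an intergenic peak at chrX:11094009-11094341 whose nearest protein-coding start, of W02H3.3, was 3980 bp away, with 1122 in replicate 1 and 1111 in replicate 2. Rank 25 lay 6027 bp from the start of K02D3.1 (1151 and 1032), and rank 52 lay 3912 bp from that of gtr-1 (906 and 846). Further down, rank 134 lay 4895 bp upstream of xol-1, the sex-determination gene that keeps dosage compensation off in males, with 561 and 616. Its nearest start of any biotype was that of the ncRNA gene C18A11.13, 256 bp away. Other X members ranked between 52 and 134, and this peak was picked for the role of xol-1.

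Several X members held letters known from dosage compensation sites. In C. elegans hermaphrodites a condensin-like complex binds both X chromosomes and lowers their transcription. It is recruited at sites named rex that are marked by a motif called MEX, whose centre holds the letters GCGCAGGG. This word, searched on both strands within 50 bp of the summit, was present at 7 of 31 X members (22.6%, interval 9.59 to 41.1%) and at 0 of 269 autosomal members, which allows a share of up to 1.36% by the exact interval. The other peaks had it at 5 of 1187 on X (0.421%) and at 3 of 4073 on autosomes. Within 150 bp of the summit it was present at 10 X members (32.3%) and 1 autosomal member, and at 32 of 29773 windows of the same length around protein-coding starts, from 250 bases before to 50 after (0.107%). Of those 10 X members, 8 lay outside promoters. Their median pooled signal was 1663, and that of the X members without the word was 1014. The word was searched after the X members had been seen, so these counts are a description, and whether the complex was at these sites was not measured.

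Below are 3 of the strongest X members with the word, in the form used above, named by the nearest protein-coding start. They are windows at chrX:11094156-11094256, chrX:14525864-14525964 and chrX:806640-806740, and the windows of nspc-17 and gtr-1 also hold TGTGGT.
W02H3.3: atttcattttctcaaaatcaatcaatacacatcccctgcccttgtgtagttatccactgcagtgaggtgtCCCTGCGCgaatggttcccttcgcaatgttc
nspc-17: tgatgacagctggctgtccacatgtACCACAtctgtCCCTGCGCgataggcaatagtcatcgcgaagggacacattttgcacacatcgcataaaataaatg
gtr-1: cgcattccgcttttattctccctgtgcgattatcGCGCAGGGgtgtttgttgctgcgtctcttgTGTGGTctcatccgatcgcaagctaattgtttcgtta

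RUNX letters were not more frequent at the 300 than at weaker peaks. TGTGGT or TGCGGT, on either strand, lay within 50 bp of the summit at 33 members (11%, interval 7.69 to 15.1%) and at 10.04% of the other peaks (Fisher's exact test, odds ratio 1.11, adjusted p = 0.555 over 5 motifs). TGTGGT was at 16 members (5.33%) and 5.78% of the other peaks, and TGCGGT at 17 members (5.67%) and 4.54%. In windows of the same length centred 350 bp from the summits, 5.50% held one of them beside members and 5.07% beside the other peaks. Within 150 bp of the summit, TGTGGT was at 30 of the 300 members and at 13.7% of the other peaks, and it was in 10.5% of windows of the same length around protein-coding starts. TGCGGT was at 31 members (10.3%, interval 7.13 to 14.3%), at 8.37% of the other peaks and in 5.42% of those windows.

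Of the other motifs searched, on both strands, GAGAGA was less frequent at members, with 46 (15.3%) against 30.7% of the other peaks (adjusted p = 1.84e-08, Fisher's exact test). GTTCGANNC, the letters of the internal B box of tRNA genes, was at 0 of 300 members, which allows a share of up to 1.22% by the exact interval, and at 77 other peaks (1.46%), and the exact test did not pass (adjusted p = 0.0536). Within 100 bp it passed, with 0 members against 4.90% (adjusted p = 1.73e-06, Fisher's exact test). GCGCGAAA, an E2F-type word, was at 5 members (1.67%) and 1.20% of the other peaks, and CACGTG, an E-box, at 11 members (3.67%) and 4.70%, and neither passed the exact test (adjusted p = 0.555 for both). Within 100 bp GCGCGAAA passed, at 6% of members and 1.84% of the other peaks (Fisher's exact test, odds ratio 3.40, adjusted p = 6.02e-05).

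Of all words of 8 letters within 50 bp of the summits, the 12 found at the most members formed 2 groups joined by overlaps of at least 6 letters, led by CTAGGCCA and by ACTCCTCT. CTAGGCCA, which reads TGGCCTAG on the other strand, was at 50 members (16.7%, interval 12.6 to 21.4%) and at 68 other peaks (1.29%). ACTCCTCT, which reads AGAGGAGT, was at 40 members (13.3%, interval 9.70 to 17.7%) and at 52 other peaks (0.989%). Within 150 bp CTAGGCCA was at 17.3% of members and at 1.25% of windows of the same length around protein-coding starts, and ACTCCTCT at 13.7% and 1.04%. Both words were found by searching these same sites, so the counts are given without a test.

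The search did not use the position of the members in the genome. However, it was made among members, of which 86.3% lay in promoters and 269 of 300 on autosomes. All 50 with CTAGGCCA and all 40 with ACTCCTCT lay in promoters, on autosomes, and none was on X. For 0 of 31 X members the exact interval reaches 11.2%, and within 150 bp CTAGGCCA was at 1 X member. Of the 1187 other peaks on X, 9 held CTAGGCCA and 7 held ACTCCTCT within 50 bp. Together the words were at 74 members, and 16 had both, including cux-7 and thoc-5. Within the 50 bp searched, the median distance of the word from the summit was 12 bp for CTAGGCCA and 19.5 bp for ACTCCTCT. Divergent starts flanked 24 of the 50 and 22 of the 40, where 44.8% of all members in promoters had them. The letters were also rare among the 24440 candidate regions with signals under the lowest IDR peak, at 0.430% for CTAGGCCA and 0.295% for ACTCCTCT.

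Further members with the words are shown here, with the windows chrV:13468334-13468434 (F25H9.7), chrV:5917857-5917957 (lrpr-1) and chrIII:12273743-12273843 (Y75B8A.24). In Y75B8A.24 the RUNX letters TGTGGT lie 2 bases before CTAGGCCA.
F25H9.7: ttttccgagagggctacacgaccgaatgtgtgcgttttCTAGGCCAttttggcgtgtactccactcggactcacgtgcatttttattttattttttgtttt
lrpr-1: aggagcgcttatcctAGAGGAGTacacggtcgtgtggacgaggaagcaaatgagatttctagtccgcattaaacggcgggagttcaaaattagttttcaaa
Y75B8A.24: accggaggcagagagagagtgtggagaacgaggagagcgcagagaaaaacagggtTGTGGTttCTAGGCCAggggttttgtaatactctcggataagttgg

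Across all annotated biotypes, the nearest start was within 500 bp for 258 members (86.0%) and for 62.6% of the other peaks. In the 300 peaks just below the threshold it was within 500 bp for 78.3%. Within 200 bp the share was 59% both for those peaks and for the members, so closeness at that distance was not particular to the members. The nearest start belonged to a protein-coding gene for 249 members (83.0%) and for 65.6% of the other peaks. For the remaining 51 members it belonged to ncRNA genes (27), snoRNA (7), snRNA (6), tRNA (3), piRNA (3), pseudogenes (3), 1 miRNA and 1 lincRNA.

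Among noncoding genes, snRNA starts were more frequent at members. A start annotated as snRNA lay within 200 bp of 7 members (2.33%) and of 22 other peaks (0.418%), with an odds ratio of 5.69 (Fisher's exact test, adjusted p = 0.00234 over 7 biotypes). None of these 7 was among the strongest 100 peaks. Of the 7 genes, 4 were sls-2.1, sls-2.2, sls-2.4 and sls-2.8, copies of the SL2 spliced leader RNA, which is trans-spliced to downstream genes of operons. Their peaks had pooled signals from 1284 to 1357, with 667 and 632 in replicates 1 and 2 at sls-2.1, 675 and 660 at sls-2.2, 700 and 618 at sls-2.4, and 776 and 536 at sls-2.8.

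In all, 13 of the 18 annotated sls-2 genes had an IDR summit within 200 bp, each 19 to 79 bp upstream of the start, and none of the 12 sls-1 genes, which encode the SL1 leader, had one. Copies of these genes are near-identical, and no label states how reads that match several copies were handled. The other snRNA-class genes at members were T11F9.15 (521 and 521), R07E5.16 (500 and 507) and sup-6 (468 and 461).

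Starts of tRNA genes were less frequent at members. Within 200 bp they lay at 1 member and at 263 other peaks (5.00%), with an odds ratio of 0.0635 (adjusted p = 6.27e-05, Fisher's exact test). Starts of ncRNA genes lay at 25 members (8.33%) and 15.02% of the other peaks (Fisher's exact test, adjusted p = 0.00234). For snoRNA (8 members, 2.67% against 1.86%), miRNA, lincRNA and pseudogene starts the exact test did not pass (adjusted p from 0.491 to 1), but for snoRNA it passed when the strongest 500 peaks were taken (4% against 1.70%, adjusted p = 0.00312). The strongest snoRNA-linked members were at F59C6.15 (800 and 718), F39B2.14 (773 and 666), Y53F4B.47 (561 and 538) and C08D8.3 (511 and 560). The strongest at ncRNA genes were at F09E5.18 (905 and 814), F56F3.11 (858 and 835), W06B11.7 (811 and 637) and F26F4.14 (720 and 734). The miRNA gene was cel-mir-5549 (523 and 470), the lincRNA gene linc-78 (494 and 548), and piRNA starts were within 200 bp of 3 members.

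By protein-coding gene, 276 members lay within 2 kb of a start, and these peaks named 274 of 19973 genes, which is 1.37% of all genes. The same assignment over all IDR peaks named 17.2%. Counting instead every gene with a start within 1 kb of a member gave 406 genes (2.03%). Of the 274 genes, 57 belonged to 23 lists of gene groups. The counts below are a description to be read against 1.37%, since neither genes nor lists were drawn independently of these data.

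Translation factor and cytoplasmic ribosomal protein genes had the largest shares of the 23 lists. Of 39 translation factor genes, 8 (20.5%) were at a member, with the strongest at eif-3.B, a subunit of initiation factor 3 (922 in replicate 1 and 886 in replicate 2), iff-2, an initiation factor 5A (749 and 772), eef-1A.2, an elongation factor (572 and 446), and eef-2 (529 and 485). Of 81 cytoplasmic ribosomal protein genes, 11 (13.6%) were, led by rpl-35 (1461 and 1428), rpl-3 (1408 and 1391), rpl-15 (1501 and 1278) and rps-1 (858 and 835). With every start within 1 kb counted, ribosomal genes numbered 20. At an IDR peak of any rank were 17 of the translation factor genes (43.6%) and 44 of the ribosomal genes (54.3%). Of all protein-coding genes, 17.2% were at an IDR peak, so both lists had high shares in the whole peak list as well. Of 70 mitochondrial ribosomal genes, 2 (2.86%) were at a member, mrpl-28 and mrps-7, and of 32 aminoacyl-tRNA synthetase genes 1, ears-2.

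Of 62 chromatin modifier and remodeller genes 6 (9.68%) were at a member, among them hda-11 (930 and 814) and hda-6 (576 and 471), which encode histone deacetylases, set-2 (586 and 533), a histone H3 lysine methyltransferase, and jmjd-4. Of 81 chaperone genes 6 (7.41%) were, led by cyn-10 (1059 and 954), dnj-28 (829 and 647), cyn-4 (636 and 590) and dnj-9 (627 and 599). Of 47 nuclear pore, transport and mRNA export genes 3 (6.38%) were, namely thoc-5, npp-8 and npp-13, and of 34 splicing genes 2, snr-4 and prp-40. The respiratory chain list had 3 of 66 (sco-1, cox-5A and atp-1), vesicle transport 3 of 84 (sec-61.G, sec-12 and sec-24.1), and the transcription machinery 2 of 69 (taf-12 and rpb-11). Of the 33 proteasome genes 0 were at a member and 20 at an IDR peak, and a share of 1.37% of 33 genes is less than 1 gene. At an IDR peak were also 19 of the chromatin genes (30.6%) and 30 of the chaperone genes (37.0%).

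Of 26 Wnt and beta-catenin genes 2 (7.69%) were at a member, mig-5, a Dishevelled protein gene (746 and 752), and wrm-1, a beta-catenin gene (672 and 666). The peak of mig-5 lay in the interval it shares with cct-1, and that of wrm-1 lay 783 bp upstream of its start. Of the 26 genes, 13 were at an IDR peak. None of the 14 seam and epidermal regulators, the 11 heterochronic genes, the 25 hlh genes or the 34 body wall muscle genes was at a member, while 4, 8, 3 and 28 of them were at an IDR peak. At 1.37% each of these lists would hold less than 1 gene, so these counts are near the share of all genes. Of the other lists, nuclear hormone receptors had 1 of 269 (nhr-19), ceh homeobox genes 1 of 63 (ceh-38), cell cycle genes 1 of 23 (efl-1, an E2F factor), histones 1 of 72 (his-37), cuticle collagens 1 of 156 (col-94) and chemoreceptors 3 of 1364 (srh-16, sri-5 and srh-2). The peaks of col-94, snr-4 and rps-1 are the same as those given above for R07E5.16, T11F9.15 and F56F3.11. In each case the noncoding start was nearer the summit, and the start of col-94 was 1752 bp away.

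**Figure D4:**
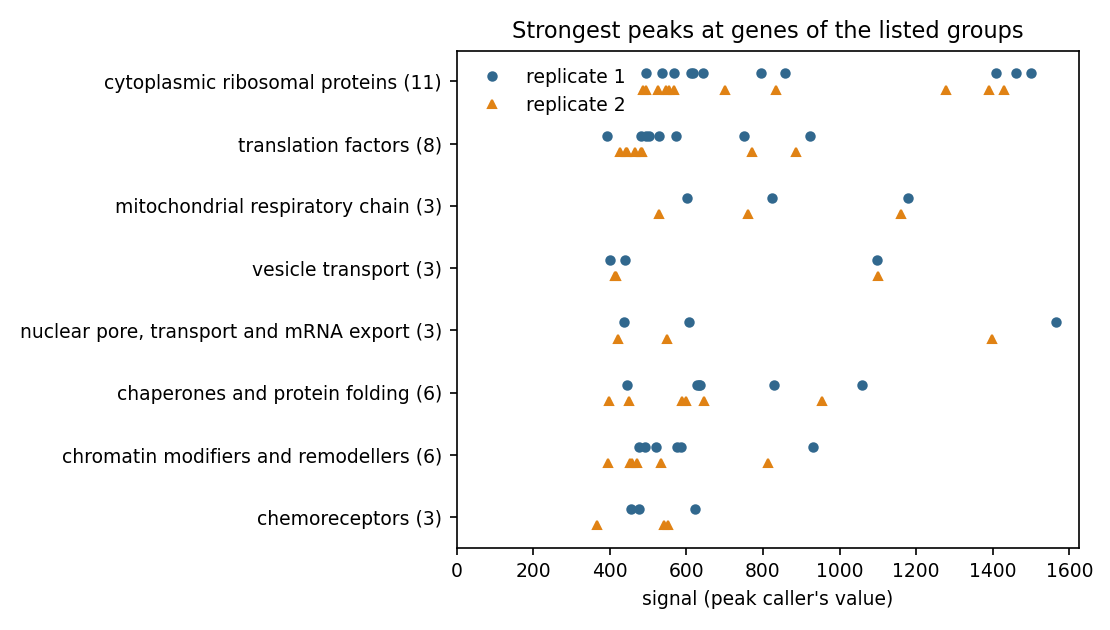
Signal in replicate 1 (circles) and replicate 2 (triangles) of each member at a gene of the lists with 3 or more members, 1 row per list with its number of genes in brackets (horizontal axis, peak caller's value). The ribosomal genes rpl-3, rpl-15 and rpl-35, with 1278 or more in each replicate, and thoc-5, with 1397 or more, stand apart from the rest of their lists.

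Product names in RefSeq were counted as well, by words chosen after the genes were seen. Of the 264 assigned genes with a product name, 20 (7.58%) had a name with "mitochondri", against 1.5% of all genes with a name and 3.09% of those at any IDR peak. Names with rRNA, ribosomal RNA or nucleolar numbered 6 (2.27%) against 0.236% of all genes and 0.506% of those at any IDR peak. Uncharacterized proteins numbered 12 (4.55%) against 9.43% of all genes and 6.22% of those at any IDR peak.

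The 2 replicates gave similar values for the 300. Signal in replicate 1 ran from 386 to 1916 with a median of 582, and in replicate 2 from 299 to 1700 with a median of 543. The coefficient of variation between the replicates was 6.73% at the median member and 16.4% at the median other peak. Replicate 1 was the higher at 243 of 299 matched members, and the median ratio of replicate 2 to replicate 1 was 0.922. No member differed more than 2-fold, against 423 of 4983 matched other peaks. Among the 300 peaks just below the threshold, no matched peak differed more than 2-fold either, so this was not particular to the members. The median coefficient of variation of those peaks was 8.40%.

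**Figure D5:**
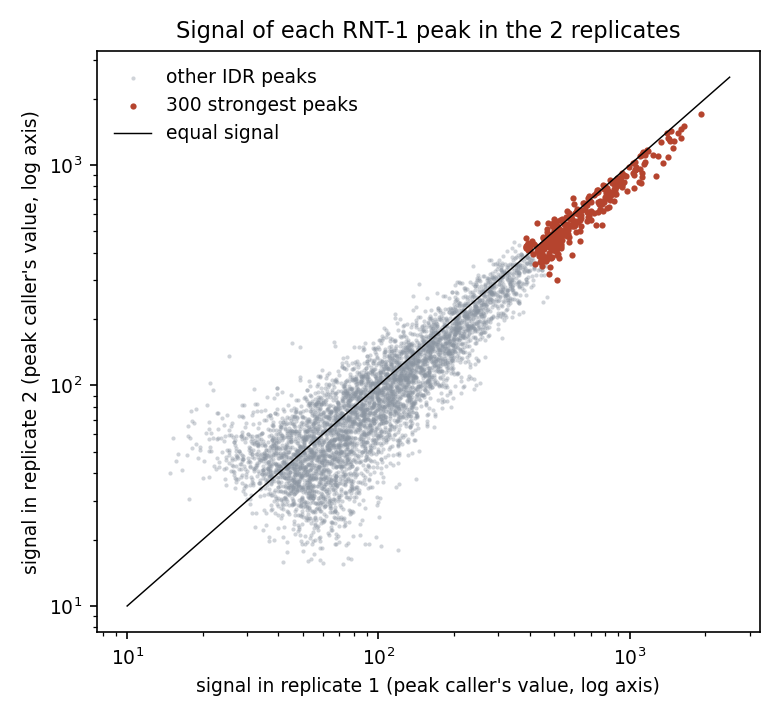
Signal of each IDR peak in replicate 1 (horizontal, log axis) and replicate 2 (vertical, log axis), for the 300 strongest and the other peaks, with a line at equal signal. The 300 strongest lie at the upper end, mostly just below the line, with a median ratio of 0.922.

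The same regions led both replicates. Of the 300, 287 (95.7%) were among the 300 strongest regions of replicate 1 and 284 (94.7%) among those of replicate 2, and 271 were in both. The pooled signal was made from both replicates, so these counts are no independent check. A choice that used 1 replicate and was read in the other was made as well. It was made among IDR peaks, which were kept by comparing both replicates, so it is not fully independent either. The 300 IDR peaks highest in replicate 1 had a median of 543 in replicate 2, against 80.0 for the remaining peaks, and 271 (90.3%, interval 86.4 to 93.4%) were in its top 300. The 300 highest in replicate 2 had a median of 582 in replicate 1, against 89.7, and 272 (90.7%) were in its top 300. With the 300 strongest regions of each replicate's own list, 271 (90.3%) matched in the other's 300, in either direction.

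The members with the largest variation between replicates were the peak at sorf-1 (513 and 299, coefficient of variation 37.3%), at W03C9.5 (588 and 392, 28.3%), the intergenic peak nearest F19H6.5 (479 and 321, 28.0%), at sls-2.8 (776 and 536, 25.9%) and at mppb-1 (1276 and 896, 24.8%). Replicate 1 was the higher at each of these 5. A single member, rank 191 near Y53F4B.21, had a region in replicate 1 (539) and no region over its summit in replicate 2.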

How the data were processed

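The 2 biological replicates of 1 group of whole L1 larvae were analysed. The authors deposited peak lists on ce11 and ce10, and no source used here names the aligner or the peak caller or gives the read depth. Per the labels, candidate regions were called against a control library in each replicate and on the pooled replicates. Each deposited region carries a signal value of the peak caller, and the deposited IDR list also a −log10 q value, which was the same for all 300 members. Nothing was renormalized.

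The 300 regions with the highest pooled signal in the ce11 IDR list were taken. A summit was matched to the replicate region that covers it. Summits were set against Ensembl 115 genes and the RefSeq sequence, both of the same assembly as the peaks. Shares were compared with the other 5260 IDR peaks by Fisher's exact test, two-sided, with Benjamini-Hochberg adjustment within each family and a threshold of 0.05, and have 95% Clopper-Pearson intervals that cover counting error only. The functions were tested on simulated data. Python 3.11.15, pandas 2.3.3, scipy 1.17.1, numpy 2.4.6 and matplotlib 3.10.9 were used.

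The members and the gene lists were chosen with earlier results of these data known. Named were the gene with the nearest start within 1 kb of each of the 30 strongest peaks, up to 4 genes per list with the strongest members, genes with 2 members, the 5 members with the largest variation and any without a region in a replicate, the 3 ranks on either side of the threshold, and up to 4 noncoding genes per biotype. Some X members were named as well, as examples. Of the 30 strongest, 1 peak has its gene left out of this text. Alternatives were other numbers of members, a choice by 1 replicate, other promoter lengths, windows and distances, the ce10 list, and comparisons without chromosome X or within promoters, the last group added after seeing the data.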

Additional observations from a re-analysis of the deposited data

How the results depend on the processing

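No paired analysis was possible because there was 1 group. The promoter, chromosome X and divergent-start results kept their direction and their side of the threshold under every alternative run for them. The RUNX-letter result did not pass under any, with an odds ratio of 0.98 within promoters. With 1 replicate left out of the choice of members, the promoter share was 85.7 to 88.0%, the X share 10.7 to 11%, the divergent share 37.7 to 40%, the RUNX share 11 to 11.7% and the snRNA share 2.33 to 2.67%. Among the strongest 100 peaks the snRNA result turned, with 0 members against 0.531% of the other peaks (Fisher's exact test, adjusted p = 1), and the tRNA result, with 0 members against 4.84%, no longer passed (adjusted p = 0.0518). At that number the coding-sequence and noncoding-exon results also no longer passed, with 0 members in either class. For the strongest 500 peaks the snoRNA result (4% against 1.70%) and GCGCGAAA (2.8% against 1.07%, adjusted p = 0.0101, Fisher's exact test) passed, and with 100 bp on each side GTTCGANNC (0% against 4.90%) and GCGCGAAA (6% against 1.84%) passed. With neighbours counted within 500 bp, the clustering result no longer passed (5.33% against 7.57%). The share within 500 bp of a start was 80.0% for protein-coding genes only and 86.0% for all biotypes. The share of members in the top of both replicates was 85.6% for 500 members and 90.3% for 300, and the median width 220 bp for 100 members and 205 bp for 300. The cause of these changes was not tested. The lists give no read depth, so no limit on undetected sites can be set.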
